A study of Mus musculus with 6 samples.

Results

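The genes of pyruvate entry into mitochondria, of the tricarboxylic acid (TCA) cycle and of itaconate synthesis were examined in mouse macrophages. They were listed by name and step of the pathway, and comprise 34 of the 16266 genes in the deposited tables. Succinate dehydrogenase was not among them and is given here with the neighbouring genes. The study compared bone marrow-derived macrophages (BMDMs), which are macrophages grown in culture out of mouse marrow, lacking Capns1 (KO, 3 libraries) with wild-type cells (WT, 3 libraries). Capns1 encodes the small regulatory subunit shared by the conventional calpains, a family of calcium-dependent proteases. Every library, KO and WT alike, came from cells exposed for 24 h to LPS, the lipopolysaccharide of bacterial outer membranes that TLR4 recognises. No unstimulated cells were analysed here, so levels are those of stimulated macrophages only. The series title describes a myeloid-specific deletion, and the labels used here give neither the Cre driver, the strain nor the age of the animals. They also do not say whether replicates came from separate animals or cultures, so p-values measure only the spread between these libraries, which may be technical.

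Pyruvate made by glycolysis crosses the inner mitochondrial membrane through a dedicated carrier. There it is turned into acetyl-CoA by the pyruvate dehydrogenase complex, which kinases switch off and phosphatases switch on, or into oxaloacetate by pyruvate carboxylase. Citrate synthase joins both products, and the cycle then runs through isocitrate, 2-oxoglutarate, succinyl-CoA, succinate, fumarate and malate back to oxaloacetate. Macrophages activated by LPS are known for rerouting part of this flow: the enzyme encoded by Acod1 takes cis-aconitate out of the cycle to make itaconate, a metabolite with antibacterial and immunomodulatory actions. Transcript levels do not measure flux or enzyme activity.

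Total counts ranged from 32631163 to 40913819 per library, and the targeted gene followed the labels. Capns1 was at 9.51, 9.94 and 9.13 CPM (the count scaled to a common library total) in KO cells, against 491.6, 477.8 and 521.4 CPM in WT cells, although the 3 KO genotype labels carry differing CAPNS numbers. On the main axis of variation KO and WT libraries separated, and on the second axis, which carried 15.9% of the variance, KO replicate 2 and WT replicate 3 lay farthest from their own groups. The summed CPM of 10 macrophage markers was 34023 to 39235 in KO cells and 35698 to 43129 in WT cells, and 1 of these genes (Cd14) was lower in KO cells at the threshold used here, a call lost without any single library other than KO replicate 2 (adjusted p between 0.0592 and 0.133). Of 9 tested stromal and fibroblast markers, 5 were called higher with KO and none lower. Their summed level, including 1 untested gene, was 410 to 486 CPM in KO cells and 198 to 233 CPM in WT cells. Among 10 markers of neutrophils and their precursors 2 (S100a8 and S100a9) were higher and 3 (Mpo, Elane and Prtn3) lower. The 10 summed to 1043 to 1402 CPM in KO cells and 1109 to 1490 CPM in WT cells. The calls of S100a8, Mpo, Elane and Prtn3 held in all 18 alternatives. The S100a9 call was lost in 8 of 18 alternatives, among them the omission of KO replicate 1, KO replicate 3, WT replicate 1 or WT replicate 3 (adjusted p between 0.0864 and 0.156). Dendritic cell markers summed to 1.10 to 1.53 CPM in KO cells and 1.20 to 1.70 CPM in WT cells. The 6 T, B and NK cell markers analysed summed to 6.07 to 8.17 CPM in KO cells and 8.85 to 11.2 CPM in WT cells. Erythroid markers summed to 1.73 to 2.18 CPM in KO cells and 1.12 to 2.94 CPM in WT cells. Of 6 proliferation genes Mcm2 was higher in KO cells, and the 6 summed to 174 to 186 CPM in KO cells and 154 to 179 CPM in WT cells. That call was lost without KO replicate 3, WT replicate 1 or WT replicate 2 (adjusted p = 0.0536, 0.0900 and 0.0736). Of tested markers, 55.6% of the stromal and 50% of the neutrophil list were called in either direction, against 14.6% of all tested genes. For the macrophage and proliferation lists these shares were 10% and 16.7%. The part of cells of these types in the results that follow was not tested.

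The expression of these metabolic genes differed little between KO and WT cells. Pdk1, a kinase that inhibits pyruvate dehydrogenase, rose in KO cells by 0.61 on the log2 scale, and Idh1, the cytosolic NADP-dependent isocitrate dehydrogenase, fell by 0.42. None of the other 32 genes passed the test, and Acod1 was not among those called. A gene was termed called when its adjusted p was under 0.05 in edgeR's quasi-likelihood test with Benjamini-Hochberg adjustment over 12219 genes, all 34 of which were tested. So 1 of 34 was called higher, where 8.44% of all tested genes were, and 1 of 34 was called lower, where 6.21% were. In either direction 5.88% of the 34 were called, against 14.6% of all tested genes and 13.6% of the 8902 genes with a mean count at least that of the least abundant of the 34. In bulk RNA, fewer cells of a type and less RNA per cell cannot be told apart.

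The sizes of the differences were small as well. The median absolute log2 fold change, KO minus WT, was 0.11 over the 34 genes and 0.20 over all tested genes. It was 0.16 over the 8902 genes named above. Those have a lower bound on count only and were not matched to the 34 in abundance. For 28 of the 34 genes (82.4%) the 95% interval of the fold change lay inside 1.5-fold in both directions. That held for 55.5% of all tested genes and for 73.3% of the 8902. The part of abundance in these contrasts was not tested. The signed median was 0.05, against -0.01 for all genes, with 21 genes above 0 and 13 below. For 10 of the 34 (29.4%) the KO and WT libraries did not overlap in CPM, against 33.6% of all tested genes. An unadjusted p under 0.05 was reached by 26.5% of the 34 and 28.2% of all genes.

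**Figure D1:**
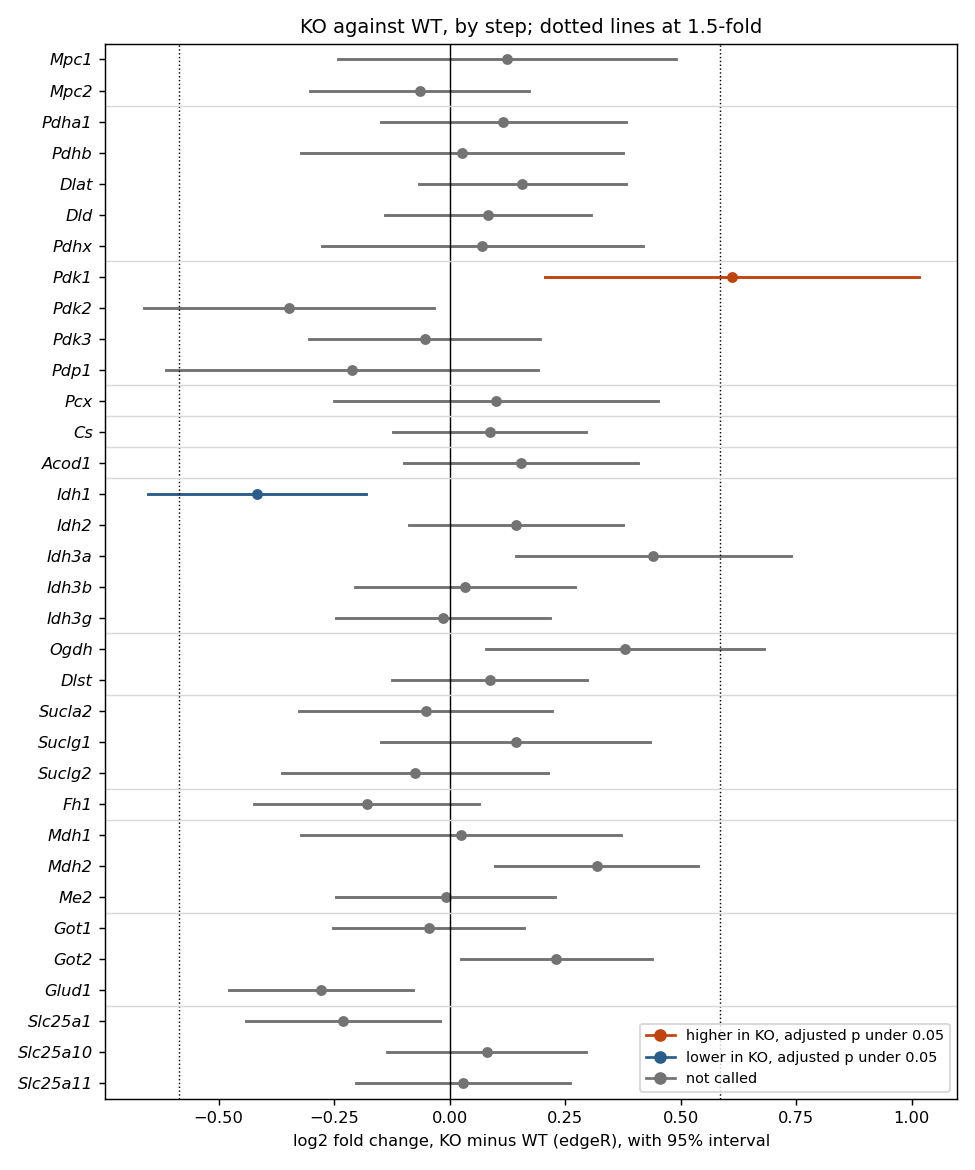
Log2 fold change, KO minus WT, with its 95% interval from edgeR for the 34 genes, ordered by step from the pyruvate carrier at the top to the mitochondrial carriers at the bottom. Orange marks the gene called higher (Pdk1), blue the gene called lower (Idh1) and grey the rest, and dotted lines stand at 1.5-fold; 28 of the 34 intervals lie between these lines.

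The promoter windows of Pdk1, Idh1 and Acod1 are shown because these are the called genes and the itaconate enzyme. Each is the RefSeq window on GRCm38.p6 from 250 bases before to 50 bases after the annotated start, written 5′ to 3′ on the gene's own strand. Where a gene had several windows, that of the outermost start was used. The start used for Pdk1 lies slightly inside the gene span given below. Motif matches are in capitals.
Pdk1 (chr2:71872974-71873273, plus strand): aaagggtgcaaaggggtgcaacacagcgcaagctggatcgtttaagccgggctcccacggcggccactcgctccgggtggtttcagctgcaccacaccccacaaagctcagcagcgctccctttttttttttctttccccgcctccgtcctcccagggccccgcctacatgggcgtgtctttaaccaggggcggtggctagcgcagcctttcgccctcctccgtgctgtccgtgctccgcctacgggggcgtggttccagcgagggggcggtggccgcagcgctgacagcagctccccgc
Idh1 (chr1:65186430-65186729, minus strand): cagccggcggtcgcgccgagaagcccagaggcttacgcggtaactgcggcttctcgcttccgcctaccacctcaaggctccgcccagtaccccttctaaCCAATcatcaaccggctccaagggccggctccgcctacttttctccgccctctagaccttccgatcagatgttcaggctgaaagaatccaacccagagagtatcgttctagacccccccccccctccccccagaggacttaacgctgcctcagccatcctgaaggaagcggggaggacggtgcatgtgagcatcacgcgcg
Acod1 (chr14:103046762-103047061, plus strand): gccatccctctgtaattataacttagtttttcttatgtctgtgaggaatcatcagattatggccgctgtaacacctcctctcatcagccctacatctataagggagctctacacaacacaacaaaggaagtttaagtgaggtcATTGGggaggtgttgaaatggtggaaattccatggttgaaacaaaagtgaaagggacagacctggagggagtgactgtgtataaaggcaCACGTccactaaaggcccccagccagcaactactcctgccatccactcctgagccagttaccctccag
The capitals mark CCAAT in Idh1, 151 bases before the start, and in Acod1 the reverse complement of CCAAT, 107 bases before it, and of ACGTG, 18 bases before it. None of the 7 motifs searched on both strands had a match in the Pdk1 window. ACGTG, the hypoxia response core, was searched with these exact letters only. GCGTG, which the Pdk1 window holds, was therefore not counted.

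Windows were at hand for 31 of the 34 genes. The CCAAT box (CCAAT) was found in 21 of these 31 windows (67.7%), against 38.0% of all 27025 windows. Those 27025 include genes not tested here, whereas all 31 belong to tested genes, so the shares compare unlike sets. The hypoxia response core (ACGTG) was in 9 of 31 windows, against 19.6% of all, and the antioxidant response element (TGACNNNGC) was in 5 of 31, against 12.4%. An estrogen-related receptor half-site (AAGGTCA) occurred in the window of Got1 alone, against 4.65% of all windows. The NF-kB motif occurred in that of Dlat (1.63% of all) and the interferon-stimulated response element in that of Suclg2 (3.49% of all). The sterol response element (TCACNCCAC), present in 1.22% of all windows, had no match. A match describes letters and is neither a binding site nor a cause.

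Levels of the 34 genes were compared as FPKM, which takes gene length into account. They spanned a wide range in both groups. Mdh2, mitochondrial malate dehydrogenase, had the highest level, 205.7 ± 7.99 FPKM in KO cells and 162 ± 11.4 FPKM in WT cells (SD, n = 3 each). Pdk1 had the lowest, 1.13 ± 0.21 FPKM in KO cells and 0.73 ± 0.09 FPKM in WT cells. Acod1 ranked 11 of 34 in KO cells and 14 of 34 in WT cells, and 1253 among all genes in WT cells. The 34 genes together summed to 3291 to 3576 CPM in KO cells and 3188 to 3318 CPM in WT cells, with overlapping groups.

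**Figure D2:**
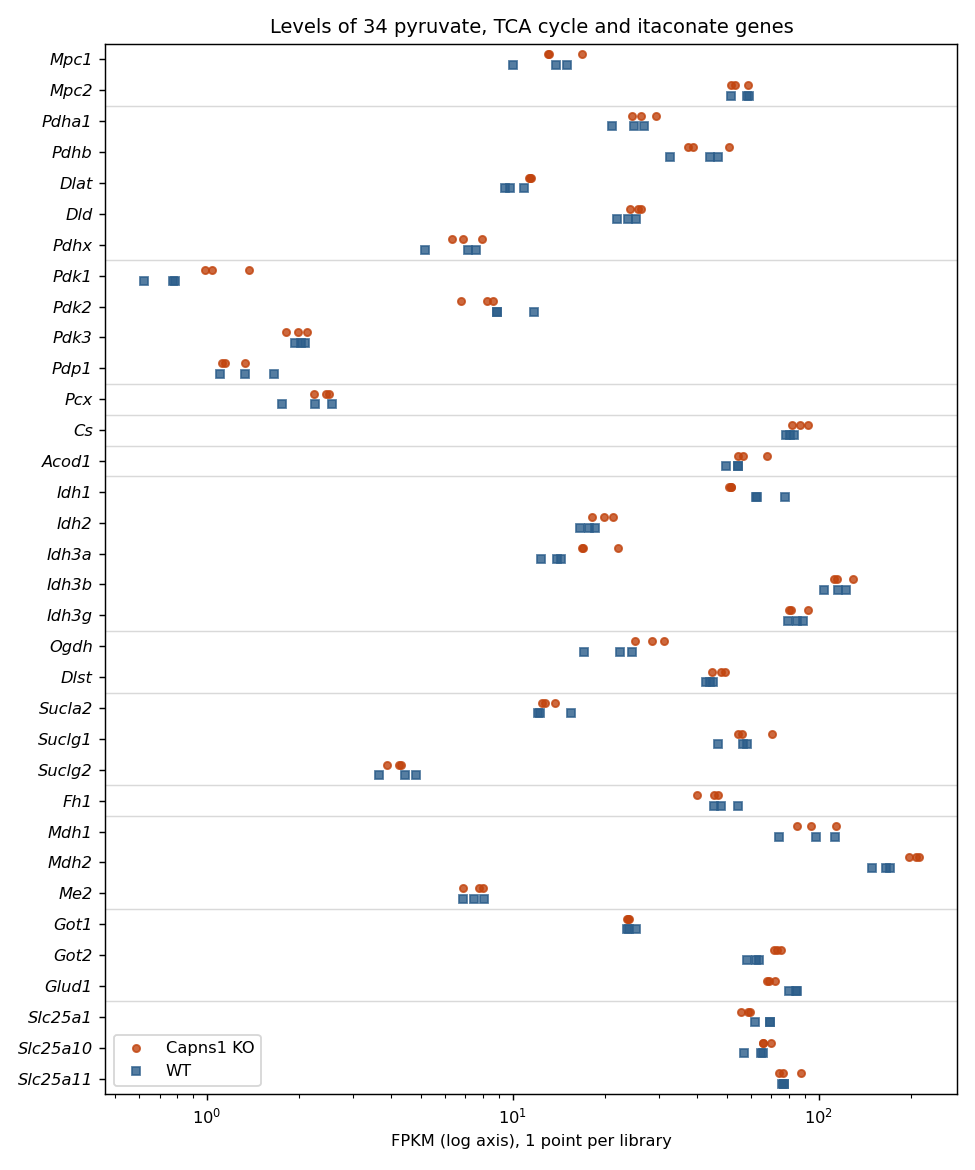
Level in FPKM (log axis) of each of the 34 genes in every library, with 3 KO points (orange circles) above 3 WT points (blue squares) for each gene. The least abundant gene is Pdk1 and the most abundant Mdh2, and for most genes the KO and WT points overlap.

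The pyruvate carrier genes did not pass the test. Mpc1 and Mpc2 encode the subunits of the mitochondrial pyruvate carrier. Mpc1 had 20.6, 26.6 and 20.7 CPM in KO cells, against 21.9, 23.8 and 15.8 CPM in WT cells. These values overlap, with KO replicate 2 the highest and WT replicate 3 the lowest, and the log2 fold change was 0.12 (SE 0.17, edgeR adjusted p = 0.687). Mpc2 averaged 54.6 ± 3.66 FPKM in KO cells and 56.3 ± 4.02 FPKM in WT cells (SD, n = 3 each, as for all means here), with a log2 fold change of -0.06. The Mpc1 value is uncertain, because 30.5% of its 32-base words also occur in transcripts of other genes and an annotated transcript overlaps it on the opposite strand.

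Nor did any subunit of the pyruvate dehydrogenase complex. Pdha1 and Pdhb encode the E1 subunits, Dlat the E2 acetyltransferase, Dld the E3 dehydrogenase shared with the other oxoacid dehydrogenase complexes, and Pdhx the E3-binding protein. Dlat had the smallest p of the 5, with 45.7, 45.8 and 46.2 CPM in KO cells, against 38.1, 39.5 and 43.9 CPM in WT cells. All 3 KO libraries lay above all 3 WT libraries, but the log2 fold change of 0.16 (SE 0.10) had an edgeR adjusted p of 0.354. Log2 fold changes of the 5 subunits ran from 0.03 (Pdhb) to 0.16 (Dlat), and every 95% interval lay inside 1.5-fold. Proportions within the complex were close: Pdhb made up 37.4% of the summed FPKM in KO cells and 38.7% in WT cells, and Dlat 10.1% in KO cells and 9.64% in WT cells. Pdhb and Pdha1 share 17.5% and 15.6% of their words with other transcripts.

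Among the genes that set the activity of the complex, Pdk1 rose in KO cells. The gene lies on chromosome 2, from 71873215 to 71903858 on GRCm38.p6, and its kinase is known as a target of hypoxia signalling. It had 8.57, 6.48 and 6.13 CPM in KO cells, against 3.89, 4.90 and 4.84 CPM in WT cells. The groups did not overlap, and KO replicate 1 was the highest library. The log2 fold change was 0.61 (SE 0.18, 95% interval 0.21 to 1.02, edgeR adjusted p = 0.0463). This call lies at the edge of the threshold: leaving out KO replicate 1, 2 or 3 gave adjusted p of 0.186, 0.0511 or 0.0527, and leaving out WT replicate 1 or 2 gave 0.158 or 0.0768. Limma-voom gave 0.0543, and limma-trend on log2(FPKM + 1) gave 0.0568.

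Pdk2, the most abundant kinase gene of the family, had 22.5, 17.6 and 21.4 CPM in KO cells, against 23.1, 23.1 and 30.5 CPM in WT cells. The KO values lay below the WT values, narrowly, and the log2 fold change of -0.35 (95% interval -0.66 to -0.03) did not pass (edgeR adjusted p = 0.136). Pdk3, a further kinase of the family, averaged 1.97 ± 0.16 FPKM in KO cells and 2.02 ± 0.08 FPKM in WT cells, and Pdp1, the catalytic subunit of a phosphatase that reactivates the complex, 1.20 ± 0.12 FPKM in KO cells and 1.36 ± 0.28 FPKM in WT cells.

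Pdk4 and Pdp2, neighbours of these genes in the pathway, completed the family. Pdk4, a kinase known to respond to fasting and fatty acids, had 3.26, 1.83 and 2.05 CPM in KO cells, against 0.43, 0.33 and 0.86 CPM in WT cells. Every KO library exceeded every WT library at this low level, with a log2 fold change of 2.10 (SE 0.40, edgeR adjusted p = 0.0051). Pdp2, the other phosphatase catalytic subunit, had 10.2, 8.22 and 10.3 CPM in KO cells, against 15.1, 13.1 and 13.6 CPM in WT cells. It fell by 0.57 on the log2 scale (SE 0.14, edgeR adjusted p = 0.0161), a call lost without WT replicate 1 (adjusted p = 0.0720).

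As shares of the summed FPKM of the 4 kinases, Pdk1 made up 9.67% ± 1.10 in KO cells and 5.75% ± 0.75 in WT cells (SD, n = 3 each). Pdk4 made up 5.83% ± 1.27 in KO cells and 1.19% ± 0.45 in WT cells, and Pdk2 67.4% ± 3.10 in KO cells and 77.0% ± 2.55 in WT cells. The groups did not overlap for these 3 shares and overlapped for Pdk3. The sum of the 4 kinases overlapped between groups, at 11.7 ± 1.25 FPKM in KO cells and 12.7 ± 1.70 FPKM in WT cells. The sum of Pdp1 and Pdp2 did not, at 2.87 ± 0.29 FPKM in KO cells and 3.80 ± 0.13 FPKM in WT cells. Their ratio, kinases over phosphatases, again overlapped, with 4.07 ± 0.36 in KO cells and 3.36 ± 0.52 in WT cells. These shares and ratios are descriptions without a test of their own.

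**Figure D3:**
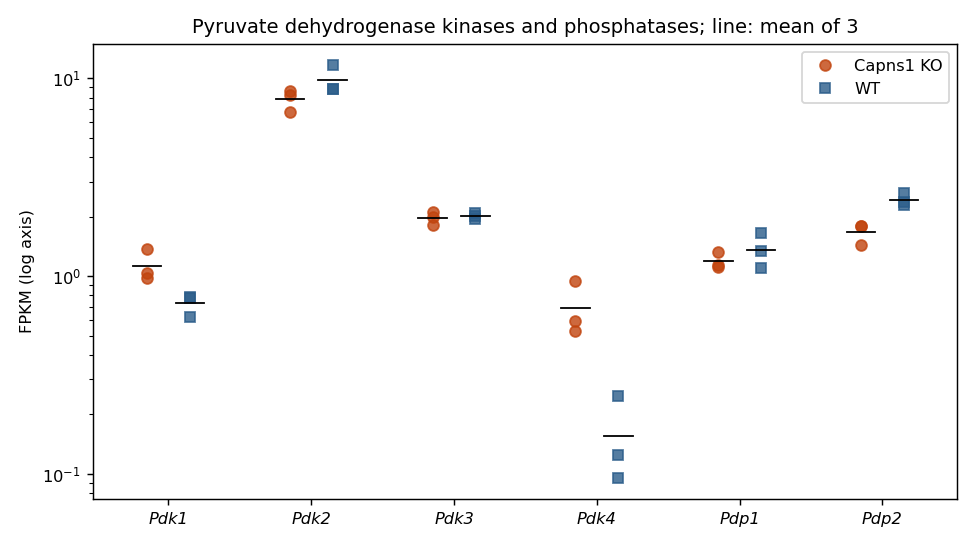
Level in FPKM (log axis) of the 4 pyruvate dehydrogenase kinase genes and the 2 phosphatase genes in every library, with KO (orange circles) left of WT (blue squares) and a line at each mean of 3. Pdk1 and Pdk4 have KO points above the WT points, Pdk2 and Pdp2 have them below, and Pdk3 and Pdp1 overlap.

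Entry through oxaloacetate and the condensing step did not pass the test. Pcx, pyruvate carboxylase, had 10.5, 9.62 and 10.8 CPM in KO cells, against 9.74, 7.54 and 11.1 CPM in WT cells, with a log2 fold change of 0.10 (SE 0.16, edgeR adjusted p = 0.743). The groups overlapped. Cs, citrate synthase, had 274 and 258 and 244 CPM in KO cells, against 240 and 233 and 248 CPM in WT cells, with a log2 fold change of 0.09 (SE 0.10, edgeR adjusted p = 0.608). Only KO replicate 3 fell within the WT range.

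Acod1, the itaconate enzyme, on chromosome 14, overlapped between groups. It had 140.8, 175.6 and 146.1 CPM in KO cells, against 141.0, 140.8 and 128.4 CPM in WT cells. KO replicate 2 stood above the other 5 libraries, which lay close together. The log2 fold change was 0.15 (SE 0.12, edgeR adjusted p = 0.429), and its 95% interval allowed a KO level from 0.93 to 1.33 times that of WT cells. Without KO replicate 2 the log2 fold change was 0.03. Per length, Acod1 averaged 59.6 ± 7.24 FPKM in KO cells and 52.8 ± 2.79 FPKM in WT cells, and its ratio to Cs was 0.687 ± 0.096 in KO cells and 0.656 ± 0.053 in WT cells. No word of its transcripts was shared with another gene.

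Of the isocitrate dehydrogenases, Idh1 fell in KO cells. The gene lies on chromosome 1, from 65158616 to 65186479, and its cytosolic enzyme is known as a source of NADPH. It had 125.7, 126.3 and 123.7 CPM in KO cells, against 151.9, 188.7 and 153.5 CPM in WT cells. KO libraries were nearly equal and all below the WT libraries, of which replicate 2 was the highest. The log2 fold change was -0.42 (SE 0.11, 95% interval -0.65 to -0.18, edgeR adjusted p = 0.0234). Without KO replicate 1, KO replicate 3 or WT replicate 2 the adjusted p was 0.0958, 0.0995 or 0.0997, so the call was lost in each case, and without WT replicate 2 the log2 fold change was -0.30.

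Idh2, the mitochondrial NADP-dependent enzyme, averaged 19.7 ± 1.55 FPKM in KO cells and 17.6 ± 1.00 FPKM in WT cells (log2 fold change 0.14, edgeR adjusted p = 0.420). Idh1 accounted for 72.3% of the FPKM of both genes in KO cells and 79.2% in WT cells, without overlap between groups. Idh3a, Idh3b and Idh3g encode the subunits of the NAD-dependent enzyme of the cycle itself, with Idh3a the catalytic subunit. Idh3a had 40.6, 53.2 and 40.4 CPM in KO cells, against 33.4, 34.5 and 29.7 CPM in WT cells. Its groups did not overlap, but its log2 fold change of 0.44 (SE 0.14) stood just outside the threshold (edgeR adjusted p = 0.0504). It passed in 8 of 18 alternatives and was 0.28 without KO replicate 2 (adjusted p = 0.124). Idh3b and Idh3g had log2 fold changes of 0.03 and -0.01. Per length Idh3a was the scarcest of the subunits, with 8.35% ± 0.62 of their summed FPKM in KO cells and 6.38% ± 0.27 in WT cells, without overlap. An exon of Idh3b overlaps one of Nop56 on the opposite strand.

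**Figure D4:**
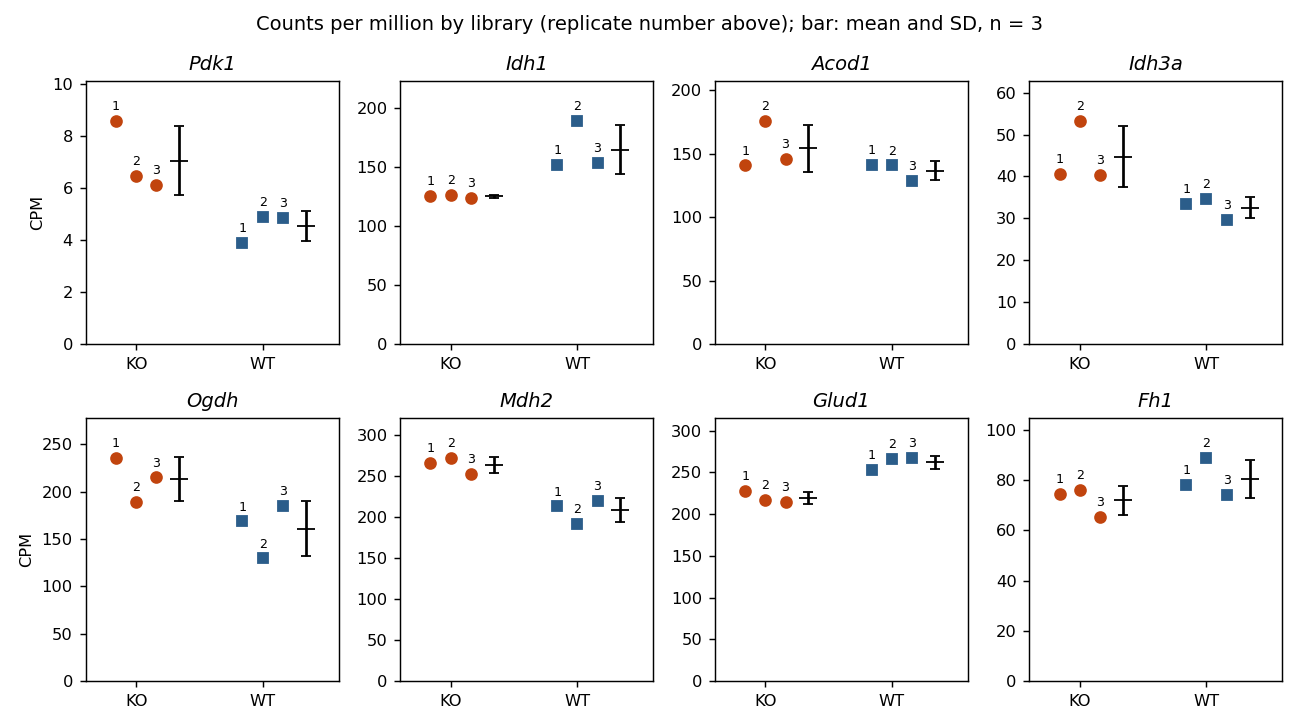
CPM in each library of 8 genes, numbered by replicate, with KO (orange circles) left of WT (blue squares), each panel starting at 0, and bars for the mean and SD (n = 3). Pdk1 and Idh1 are the called genes; Acod1 and Fh1 overlap between groups, whereas Idh3a, Ogdh, Mdh2 and Glud1 do not overlap and were not called.

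No gene of the later steps of the cycle was called. Ogdh, the E1 subunit of the 2-oxoglutarate dehydrogenase complex, came near. It had 235.6, 188.9 and 215.0 CPM in KO cells, against 168.5, 129.3 and 185.1 CPM in WT cells, with the lowest KO library just above the highest WT library. The log2 fold change was 0.38 (SE 0.14, edgeR adjusted p = 0.0886), and it passed in 5 of 18 alternatives. Without KO replicate 2 or WT replicate 3 the adjusted p was 0.0458 or 0.0206, and without any other single library it lay between 0.169 and 0.237, with a log2 fold change of 0.25 without WT replicate 2. Dlst, the E2 subunit, averaged 47.4 ± 2.37 FPKM in KO cells and 44.0 ± 1.16 FPKM in WT cells.

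Suclg1, the alpha subunit common to both succinyl-CoA ligases, had 78.2, 97.8 and 76.1 CPM in KO cells, against 81.3, 78.9 and 65.2 CPM in WT cells. Here too KO replicate 2 was the highest and WT replicate 3 the lowest, and the log2 fold change was 0.14 (SE 0.13, edgeR adjusted p = 0.535). Sucla2 and Suclg2, the beta subunits of the ADP- and GDP-forming enzymes, had log2 fold changes of -0.05 and -0.07, the Suclg2 value uncertain because 20.3% of its words are shared. Fh1, fumarase, had 74.5, 76.2 and 65.3 CPM in KO cells, against 78.0, 88.9 and 74.3 CPM in WT cells. Its groups overlapped, with a log2 fold change of -0.18 (SE 0.11, edgeR adjusted p = 0.330).

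Mdh2 had 266.4, 272.2 and 252.3 CPM in KO cells, against 212.9, 192.0 and 220.0 CPM in WT cells. Each KO library was above each WT library, and the log2 fold change of 0.32 (SE 0.10) missed the threshold (edgeR adjusted p = 0.0549). It passed in 10 of 18 alternatives, with adjusted p of 0.0465 under RLE scaling, 0.0336 under upper quartile scaling and 0.0180 with DESeq2. With the trend of fold change on gene length removed the log2 fold change was 0.22, with an adjusted p of 0.194. Leaving out any single library other than WT replicate 3 gave no call, with edgeR adjusted p between 0.0783 and 0.146. Mdh1, the cytosolic malate dehydrogenase, averaged 98.0 ± 14.8 FPKM in KO cells and 95.1 ± 19.7 FPKM in WT cells, and Me2, a mitochondrial malic enzyme that turns malate into pyruvate, 7.53 ± 0.59 FPKM in KO cells and 7.47 ± 0.60 FPKM in WT cells. An exon of Mdh1 overlaps one of Wdpcp on the opposite strand.

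The genes that join amino acids to the cycle gave values on both sides of 0, without a call. Glud1, glutamate dehydrogenase, had 227.6, 216.6 and 214.6 CPM in KO cells, against 253.5, 265.7 and 267.4 CPM in WT cells. The KO values lay below the WT values with narrow spread in both groups, and the log2 fold change was -0.28 (SE 0.09, edgeR adjusted p = 0.0621), passing in 4 of 18 alternatives. Got2, the mitochondrial aspartate aminotransferase, averaged 73.3 ± 1.92 FPKM in KO cells and 61.5 ± 2.83 FPKM in WT cells, without overlap (log2 fold change 0.23, edgeR adjusted p = 0.134). The Glud1 to Got2 ratio of FPKM was 0.948 ± 0.0080 in KO cells and 1.35 ± 0.080 in WT cells. Got2 shares 30.6% of its words with other transcripts and Glud1 shares 10.1%, so both values carry that uncertainty. Got1, the cytosolic aminotransferase, averaged 23.9 ± 0.17 FPKM in KO cells and 24.2 ± 0.88 FPKM in WT cells.

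Of the carriers, Slc25a1, which exports citrate from mitochondria, had 98.2, 93.3 and 99.9 CPM in KO cells, against 104.0, 116.0 and 116.5 CPM in WT cells. The groups did not overlap, and the log2 fold change of -0.23 (SE 0.10) did not pass (edgeR adjusted p = 0.141). Slc25a10, the dicarboxylate carrier, and Slc25a11, the oxoglutarate-malate carrier, had log2 fold changes of 0.08 and 0.03. Slc25a10 and Slc25a11, like Pdha1 and Got2, have exons that overlap a transcript on the opposite strand.

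The libraries that lay apart on the second axis of variation also held outer positions in many of these genes. KO replicate 2 was the highest of its group in 20 of the 34 genes, and WT replicate 3 the lowest of its group in 18. How often each was so over all genes was not counted. Against the mean of the other 2 KO libraries, the median gene of the 34 was 0.09 higher on the log2 scale in KO replicate 2, where the median of all genes was -0.04. Against the mean of the other 2 WT libraries, the same median in WT replicate 3 was -0.13, where all genes gave -0.02. KO replicate 3, which was not one of the libraries set apart on that axis, was the lowest of its group in 20 genes as well. Its median was -0.11, where all genes gave 0.015.

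With KO replicate 2 and WT replicate 3 both left out, 11 of the 34 genes were above 0 and 23 below. Their median log2 fold change became -0.10, against -0.01 for all genes. In that fit of 4 libraries Pdk1, Ogdh and Mdh2 were called higher and Pdhb, Idh1, Fh1 and Glud1 lower, 20.6% of the 34, against 26.0% of all tested genes. Pdhb had a log2 fold change of -0.29 there, against 0.03 with all 6 libraries, and Acod1 gave -0.01. Pdk1 at 0.70 and Idh1 at -0.49 kept their directions and passed. On the second axis KO replicates 1 and 3 (12.6 and 10.4) and WT replicates 1 and 2 (-8.21 and -12.4) also stood on opposite sides, so in those 4 libraries genotype and this axis cannot be told apart.

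**Figure D5:**
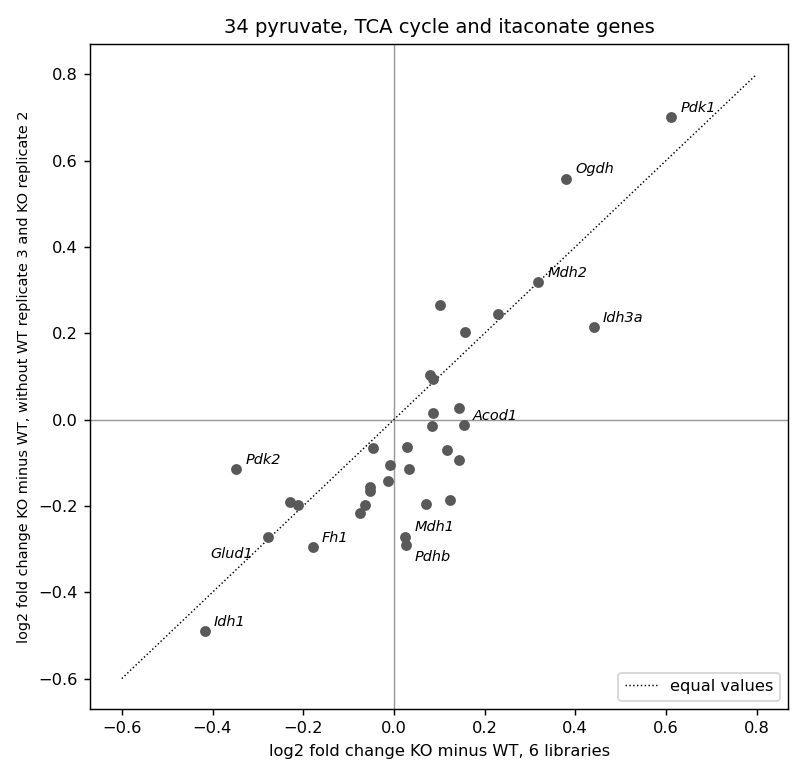
Log2 fold change, KO minus WT, of the 34 genes from all 6 libraries (x axis) and without KO replicate 2 and WT replicate 3 (y axis), with a dotted line of equal values. Most points lie below the line, with 21 genes above 0 on the x axis and 11 on the y axis. Pdk1, Pdk2 and Ogdh are among the genes that lie above it.

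Neighbouring genes of the pathway, taken as a list of 52, included more called members. The list covers handling of pyruvate, lactate, acetate, glutamine, citrate and malate, succinate dehydrogenase, itaconate use and other linked genes. Of 46 tested, 6 rose and 6 fell (26.1%, against 14.6% of all tested genes), with a median log2 fold change of -0.05. The list was chosen with earlier results of these data known, so its share describes the list only. Rising genes by smallest p were Clybl, Slc16a3, Pdk4 and Slc25a20. Clybl, a citramalyl-CoA lyase that takes part in clearing the CoA ester formed from itaconate, had 12.8, 15.8 and 14.9 CPM in KO cells, against 9.14, 7.85 and 7.55 CPM in WT cells, with no overlap (log2 fold change 0.81, SE 0.14, edgeR adjusted p = 0.0033). Slc16a3, which exports lactate, had 106 and 75.9 and 101 CPM in KO cells, against 45.5, 56.3 and 62.6 CPM in WT cells (log2 fold change 0.76, SE 0.15, edgeR adjusted p = 0.0048). Slc25a20, the carnitine-acylcarnitine carrier, had a log2 fold change of 0.72 (edgeR adjusted p = 0.0085). Me1, cytosolic malic enzyme, and Ldha, a lactate dehydrogenase subunit, were the other 2 that rose. The Me1 call was lost without KO replicate 3 or WT replicate 2 (adjusted p = 0.0525 and 0.0530), and that of Ldha without WT replicate 1 (adjusted p = 0.0737).

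Falling genes were led by Nnt, the proton-driven transhydrogenase that makes mitochondrial NADPH. It had 23.3, 23.0 and 20.1 CPM in KO cells, against 54.0, 42.6 and 62.6 CPM in WT cells (log2 fold change -1.28, SE 0.15, edgeR adjusted p = 1.9e-04). All KO libraries were under every WT library. The C57BL/6J strain is known to carry a deletion in Nnt, and since the labels give no strain, its part in this difference was not tested. Acss1, mitochondrial acetyl-CoA synthetase, followed with a log2 fold change of -0.72 (edgeR adjusted p = 0.0029). Ldhb, the other lactate dehydrogenase subunit, had 37.7, 45.9 and 38.4 CPM in KO cells, against 62.9, 66.0 and 56.4 CPM in WT cells (log2 fold change -0.62, SE 0.12, edgeR adjusted p = 0.0049), with 32.2% of its words shared, against 18.9% for Ldha. The FPKM ratio of Ldha to Ldhb was 4.84 ± 0.39 in KO cells and 2.33 ± 0.18 in WT cells, without overlap. Pdp2 was the fourth, and Sdhaf1, an assembly factor of succinate dehydrogenase, and Abcg2, an efflux pump, completed the 6. The Sdhaf1 call was lost without any single library other than KO replicate 2 (adjusted p between 0.0633 and 0.176), and that of Abcg2 without KO replicate 1, KO replicate 3, WT replicate 1 or WT replicate 2 (between 0.0551 and 0.108). The succinate dehydrogenase genes Sdha, Sdhb, Sdhc and Sdhd were not called, with log2 fold changes from -0.09 (Sdhd) to 0.27 (Sdhb).

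Among 23 tested regulators and itaconate-linked genes, 4 rose and 2 fell (26.1%, against 14.6% of all tested genes), with a median log2 fold change of -0.03. This list, too, was chosen with earlier results of these data known, and its share describes the list only. The 4 that rose were Nqo1, Hmox1, Slc7a11 and Gclm. Nqo1, a quinone reductase, had a log2 fold change of 1.32 (edgeR adjusted p = 0.0011) and Hmox1, heme oxygenase 1, one of 0.79 (adjusted p = 0.0048). Slc7a11, the cystine importer, gave 1.06 (adjusted p = 0.0167), which was lost without KO replicate 1 (0.0783), and Gclm, a subunit of the enzyme that begins glutathione synthesis, 0.39 (adjusted p = 0.0428). Of other genes on the list that are known, like these 4, as targets of the oxidant-responsive factor NRF2, Gclc at -0.09, Srxn1 at 0.03 and Txnrd1 at 0.29 were not called (edgeR adjusted p = 0.652, 0.910 and 0.0742). Nfe2l2, which encodes NRF2, was not called either; its log2 fold change was -0.36 (edgeR adjusted p = 0.0558), and its groups did not overlap. The Gclm call was lost without any single library other than WT replicate 3, with adjusted p between 0.0647 and 0.127.

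Irf1 and Irf8, interferon regulatory factors, were the 2 that fell. Irf1, known as an inducer of Acod1, had 107.5, 105.8 and 97.5 CPM in KO cells, against 145.7, 142.0 and 126.6 CPM in WT cells, so the groups did not overlap (log2 fold change -0.44, SE 0.10, edgeR adjusted p = 0.0142). Without KO replicate 1, KO replicate 3, WT replicate 1 or WT replicate 2 its adjusted p lay between 0.0535 and 0.0800. Irf8 had a log2 fold change of -0.33 (edgeR adjusted p = 0.0324), lost without any single library other than KO replicate 2, with adjusted p of 0.0591 to 0.136. Hif1a, the hypoxia-inducible factor whose targets include Pdk1, had a log2 fold change of -0.03.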

How the data were processed

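RNA of 6 BMDM samples (3 KO, 3 WT) was made into strand-specific total RNA libraries, per the labels' protocols. Tools named in the submitters' processing notes are HTSeq, HISAT2 and fastp, on mm10; their versions, and whether counting used strand, were not given in the sources used here. The authors deposited raw read counts per gene and FPKM values for 16266 genes. In the deposited tables each FPKM matched its count over 1 fixed gene length and over the column total, to within 1% in 99.99% of cases with 10 or more counts.

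Sample titles gave the groups and the replicate numbers. Counts were tested with the quasi-likelihood F test of edgeR 4.0.16 (R 4.3.3), after filterByExpr and TMM scaling, with genotype as the only term, and Benjamini-Hochberg adjustment covered 12219 genes. The SE of a log2 fold change is its absolute value over the root of the F statistic, and intervals are at 95%. CPM is the count divided by the column total. At these depths 3 counts correspond to 0.0733 to 0.0919 CPM, counting error only. Scripts were tested on simulated data. Shared sequence is the share of a gene's 32-base words found in transcripts of other GENCODE M21 genes. Positions and promoters are those of RefSeq on GRCm38.p6.

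Alternatives were RLE and upper quartile scaling, DESeq2 1.42.0, limma 3.58.1 (voom, and trend on log2 FPKM plus 1 or 0.1), other low-value filters, a replicate block, removal of a length trend, and omission of libraries. The genes and lists were chosen with earlier results of these data known. Per-library values were given for called genes, Acod1 and the gene of smallest p in each step, and for at most 4 called genes per direction in each neighbour list. Slc25a21, Ppargc1a, Cd3e and Ncr1 were not analysed here.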

Additional observations from a re-analysis of the deposited data

How the results depend on the processing

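Of 611 values of the 34 genes under 18 alternatives, 528 kept their direction and side of the threshold, 28 became called, 11 lost the call and 44, all of genes not called in the fit of 6 libraries, changed sign. The lost calls were those of Pdk1 (8) and Idh1 (3). Pdk1 has no value under a minimum FPKM of 1 in 3 libraries. The cause of these shifts was not tested, and 3 libraries a group limit the precision of them all.

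Genes called higher numbered 3 under RLE, upper quartile scaling, DESeq2, a CPM minimum of 1 and removal of the length trend, 2 with no filter or on log2(FPKM + 0.1), 0 with limma-voom (Pdk1 at an adjusted p of 0.0543), and 0 to 3 with single libraries left out. Genes called lower numbered 2 with DESeq2 or on log2(FPKM + 1), and 0 to 1 with single libraries left out. In either direction 11.8% of the 34 were called under RLE or a CPM minimum of 1, against 14.6% of all tested genes. These shares were 11.8% and 14.5% under upper quartile scaling, 14.7% and 18.3% with DESeq2, and 11.8% and 16.4% with the length trend removed. They were 2.94% and 14.5% with limma-voom, 8.82% and 11.5% with no filter, and 8.82% and 13.9% on log2(FPKM + 0.1). On log2(FPKM + 1) they were 8.82% and 13.5%. With KO replicate 2 and WT replicate 3 both left out, 3 were called higher and 4 lower, and of all genes 1681 and 1505. Of all genes, those called lower were 359 to 742 with single libraries left out. In either direction, single omissions gave 0% to 11.8% of the 34 called and 8.99% to 14.1% of all tested genes.

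Nothing in the labels says that same-numbered KO and WT libraries pair, so the numbers were not taken as pairs. Deviations from the group means correlated at -0.10, 0.23 and 0.18 between same-numbered libraries. With 3 libraries a group these values cannot decide whether the libraries pair. With a replicate block 4 of the 34 were called higher and 2 lower, 17.6% in either direction. Of all tested genes 1362 were called higher and 1164 lower, 20.7% in either direction.

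Log2 fold changes that differed in sign were as follows. Idh3g gave 0.0102 under upper quartile scaling, 0.0055 with the CPM minimum, 0.0044 on log2(FPKM + 0.1) and 0.0043 on log2(FPKM + 1) with or without the FPKM minimum. Me2 gave 0.0146, 0.0105, 0.0117 and 0.0105 under the same settings in that order, and 0.0112 with the length trend removed, where Pdhb gave -0.0230, Idh3b -0.0273 and Mdh1 -0.0036. With both libraries left out the values were -0.1869 for Mpc1, -0.0713 for Pdha1, -0.2902 for Pdhb, -0.0150 for Dld, -0.1947 for Pdhx, -0.0133 for Acod1, -0.1141 for Idh3b, -0.0935 for Suclg1, -0.2710 for Mdh1 and -0.0644 for Slc25a11. With single libraries left out the ranges were -0.0266 to 0.2521 for Mpc1, -0.1436 to 0.1356 for Pdhb, -0.0686 to 0.1856 for Pdhx, -0.1244 to 0.0244 for Pdk3, -0.0291 to 0.2453 for Pcx, -0.0485 to 0.0940 for Idh3b, -0.0986 to 0.0467 for Idh3g, -0.1092 to 0.0704 for Sucla2, -0.1689 to 0.0226 for Suclg2, -0.1176 to 0.1785 for Mdh1, -0.0520 to 0.0737 for Me2 and -0.0654 to 0.0984 for Slc25a11.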
